A study of Rattus norvegicus with 8 samples.

Results

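The expression of 4 genes of the endosome and lysosome system was measured in lower lumbar cord tissue of Sprague Dawley rats, an outbred strain, after an injury higher up the cord. They were Ctsb (ENSRNOG00000010331), Ctsd (ENSRNOG00000020206), Ctsl (ENSRNOG00000018566) and Cd63 (ENSRNOG00000007650), chosen by identifier from the 32883 genes of the count table. All 4 were detected in all 8 libraries and passed the filter on low counts, which 4159 genes passed. The series asked how a thoracic injury changes expression in the intact cord below it. The injured group was 4 libraries of lower spinal cord taken 4 days after a hemisection, a cut through one side of the cord, at thoracic level 9. The comparison group was 4 libraries of the same region from rats of the same strain without a cord injury. The labels state no genotype, drug treatment, age or sham operation for either group, and they do not say whether each library is a separate animal, so the spread behind each p-value is that between libraries and may be technical.

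Cathepsins are the main proteases of the lysosome, the acidic compartment in which cells break down proteins taken up from outside or delivered by autophagy. Ctsb and Ctsl encode cathepsins B and L, which cut proteins with an active-site cysteine, and Ctsd encodes cathepsin D, which uses a pair of aspartates. All are made as inactive precursors that are activated in the acidic compartment. Cd63 encodes a tetraspanin, a membrane protein of late endosomes and lysosomes that is also carried on exosomes. In the central nervous system these genes are expressed in many cell types, and microglia and infiltrating macrophages, which clear debris, are known for high levels of them.

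Promoter sequences from RefSeq (build GRCr8) were matched for 3 of the 4 genes, Ctsd, Ctsl and Cd63. They are shown because CACGTG, an E-box, is the core of the element through which TFEB, a regulator of lysosomal genes, is known to bind. Each sequence is the 250 bases before the annotated start site, 5′ to 3′ on the gene's strand. Capitals mark CACGTG and GGGCGG (a GC box, on either strand, where CCGCCC is its complement), and matches that overlap run together.
Ctsd, chr1:206968822-206969071, minus strand: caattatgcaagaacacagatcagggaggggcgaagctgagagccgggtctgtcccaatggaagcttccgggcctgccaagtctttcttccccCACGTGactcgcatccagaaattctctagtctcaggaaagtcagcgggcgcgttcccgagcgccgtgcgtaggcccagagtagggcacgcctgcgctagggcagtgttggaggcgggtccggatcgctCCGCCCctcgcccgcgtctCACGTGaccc
Ctsl, chr17:769854-770103, plus strand: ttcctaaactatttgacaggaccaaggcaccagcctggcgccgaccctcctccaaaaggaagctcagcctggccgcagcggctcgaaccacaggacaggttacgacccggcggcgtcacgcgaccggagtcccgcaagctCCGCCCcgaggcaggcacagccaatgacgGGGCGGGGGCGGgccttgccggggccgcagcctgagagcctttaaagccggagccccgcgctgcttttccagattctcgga
Cd63, chr7:1921894-1922143, plus strand: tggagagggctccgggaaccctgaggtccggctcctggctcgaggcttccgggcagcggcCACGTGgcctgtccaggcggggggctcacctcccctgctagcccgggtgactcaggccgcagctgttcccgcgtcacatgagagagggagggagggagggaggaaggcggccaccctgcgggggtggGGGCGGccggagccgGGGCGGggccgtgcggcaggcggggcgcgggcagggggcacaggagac

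The Ctsd window held CACGTG 2 times, beginning 157 and 10 bases before the start site. Both matches continue as CACGTGAC. The Cd63 window held CACGTG once, 190 bases before the start site and without that extension, and the Ctsl window held none. Of 33469 promoter windows of this length in the same table, 5.59% held CACGTG at least once, 0.43% held it at least 2 times and 1.63% held CACGTGAC on either strand. GGGCGG was found on either strand in all 3 windows, 1 time for Ctsd, 3 times for Ctsl and 2 times for Cd63, against 30.5% of all windows with at least 1 match. The 3 windows were rich in G and C, at 63.2% for Ctsd, 66.8% for Ctsl and 76.4% for Cd63, where the median of all windows was 51.2%. These matches describe the letters only. The counts give no information on binding at these places.

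All 4 genes stood higher in the injured cord, by 1.36-fold to 2.12-fold. Ctsb passed the test across all tested genes, and Ctsd, Ctsl and Cd63 did not. Genes were called at an edgeR quasi-likelihood adjusted p under 0.05, and 41 of 4159 tested genes (0.986%) were called higher on that rule and 0 lower. In all 4 genes every injured library lay above every uninjured library in CPM, molecules per 1000000 molecules of the tested genes after scaling with TMM factors. This separation was seen in 128 of 4159 tested genes (3.08%). For Ctsd and Ctsl it rested on less than 1 molecule. The lowest injured Ctsd level was 271 against 269 CPM, where 1 molecule was worth 2.76 CPM in that injured library. For Ctsl it was 101 against 97.7 CPM, where 1 molecule was worth 7.79 CPM. At an unadjusted p under 0.05, Ctsb, Ctsl and Cd63 were higher, as were 222 of 4159 tested genes (5.34%). The median log2 fold change of the 4 genes was 0.75, against -0.01 for all tested genes, of which 47.9% had a positive value. The genes were selected with earlier results of these libraries known, and these counts describe them without testing the group. In bulk tissue, more cells of a type and more RNA per cell cannot be told apart.

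**Figure D1:**
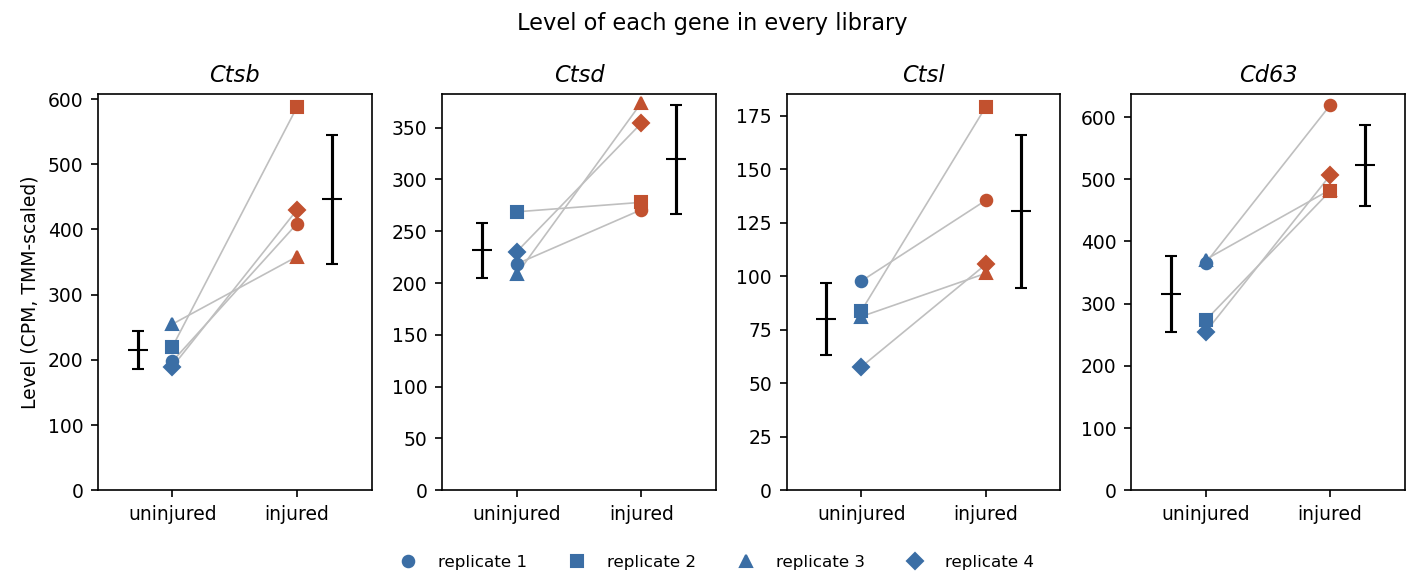
Level of Ctsb, Ctsd, Ctsl and Cd63 in each library, in CPM on linear axes that start at 0. Symbols mark the replicate number, grey lines join libraries of the same number, and black bars give the group mean ± SD (n = 4). In each panel the lowest injured library lies above the highest uninjured library, by a wide margin for Ctsb (358 against 255 CPM) and a narrow one for Ctsd (271 against 269 CPM) and Ctsl (101 against 97.7 CPM).

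Depth was low and uneven, with 119808 to 405537 molecules per library. Both groups had their shallowest library at number 3, where the 10 most abundant genes held 24.6% (uninjured) and 18.5% (injured) of the molecules, against 8.88% to 13.3% elsewhere. One molecule of a gene was therefore worth 11.6 CPM in uninjured replicate 3 and 7.79 CPM in injured replicate 3, and between 2.40 and 4.41 CPM in the others. The highest count of any gene lay between 3989 and 4080 molecules in every library. That is just under the number of molecular identifiers assumed possible, given below. A nearly fixed top count takes a larger share of a shallower library. Its part in the uneven shares and TMM factors was not tested. With the 25 most abundant genes removed, log2 fold changes were 1.09 for Ctsb, 0.45 for Ctsd and 0.75 for both Ctsl and Cd63. Same-numbered libraries of the 2 groups also deviated from their group means together. The main fit used no block, and values with the replicate number as a block are given below beside it. Markers of microglia, macrophages and other cell types could not be looked up among the counted genes, because no table used here pairs the other identifiers with symbols. Their part in the results was not tested, and neither was the labelled tissue checked against marker genes.

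Ctsb was the gene with the largest change. It was counted at 77, 50, 22 and 79 molecules in uninjured replicates 1 to 4, and at 148, 220, 46 and 102 molecules in injured replicates 1 to 4. Scaled to depth, its level was 198, 220, 255 and 190 CPM without injury and 409, 588, 358 and 430 CPM after it. The uninjured libraries lay close together, while injured replicate 2 stood above the other injured libraries and injured replicate 3 was the lowest of them. The uninjured mean was 216 ± 29.2 CPM and the injured mean 446 ± 99.0 CPM (SD, n = 4 each). The fitted change was 2.12-fold, with a 95% interval from 1.51-fold to 2.98-fold. On the log2 scale this was 1.09 ± 0.23 (standard error; edgeR adjusted p = 0.0236), and Ctsb ranked 34 by p among the 4159 tested genes.

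Within replicate numbers, injured Ctsb levels were 2.07, 2.67, 1.41 and 2.27 times the uninjured level for numbers 1 to 4. Number 3, the shallowest pair, had the smallest ratio. Its 95% intervals for counting error ran from 160 to 386 CPM in the uninjured and from 262 to 478 CPM in the injured library, and they overlapped. In number 2 the same intervals were 164 to 290 CPM and 513 to 671 CPM, and they did not. With the replicate number as a block, the Ctsb fold was 2.14 (1.65 to 2.76, edgeR adjusted p = 0.00136).

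The Ctsb call did not hold with every library left out. It held in 3 of the 8 fits that left out 1 library, namely those without uninjured replicate 3, injured replicate 3 or injured replicate 4. It was lost in the other 5, with edgeR adjusted p = 0.113 without uninjured replicate 1, 0.0897 without uninjured replicate 2, 0.102 without uninjured replicate 4, 0.0502 without injured replicate 1 and 0.115 without injured replicate 2. The log2 fold change in these 8 fits stayed between 0.92 and 1.17. Restricted to numbers 3 and 4 it was 0.87 (edgeR adjusted p = 1), in a fit that called 3 of 3226 genes (0.093%) higher. Restricted to numbers 1 and 2 it was 1.27 (edgeR adjusted p = 0.0146), in a fit that called 82 of 4768 genes (1.72%) higher. Without both libraries numbered 3 it was 1.24 (edgeR adjusted p = 0.0243), in a fit that called 61 of 4660 genes (1.31%) higher. DESeq2 (46 of 4156 genes called higher, 1.11%) and limma-voom (47 of 4159, 1.13%) called Ctsb and none of the other 3 genes.

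Cd63, the tetraspanin, had the next smallest p. It was counted at 142, 62, 32 and 106 molecules in uninjured replicates 1 to 4 and at 224, 180, 62 and 120 molecules in the injured ones. Its level was 365, 273, 371 and 254 CPM without injury and 619, 481, 483 and 506 CPM with it. In CPM, uninjured numbers 1 and 3 lay above numbers 2 and 4, and injured replicate 1 was the highest of all 8. Uninjured replicate 3 had a 95% interval for counting error from 254 to 523 CPM. Its share of all molecules was 0.0267%, near those of uninjured numbers 2 (0.0260%) and 4 (0.0261%), against 0.0379% in number 1. The group means were 316 ± 60.6 CPM and 522 ± 65.4 CPM (SD, n = 4 each), a fitted fold of 1.68 with a 95% interval from 1.21 to 2.33.

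On the log2 scale the Cd63 change was 0.74 (standard error 0.23) and did not pass (edgeR adjusted p = 0.222). Blocking by replicate number made it 0.77 (standard error 0.16), which did pass (edgeR adjusted p = 0.0118). In that fit 94 of 4159 genes (2.26%) were called higher and 16 (0.385%) lower, and Ctsb and Cd63 were the 2 of the 4 genes called. Injured levels of Cd63 were 1.70, 1.76, 1.30 and 1.99 times the uninjured ones for numbers 1 to 4. Higher injured levels in all 4 numbers were found for all 4 genes, and for 445 of 4159 tested genes (10.7%).

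**Figure D2:**
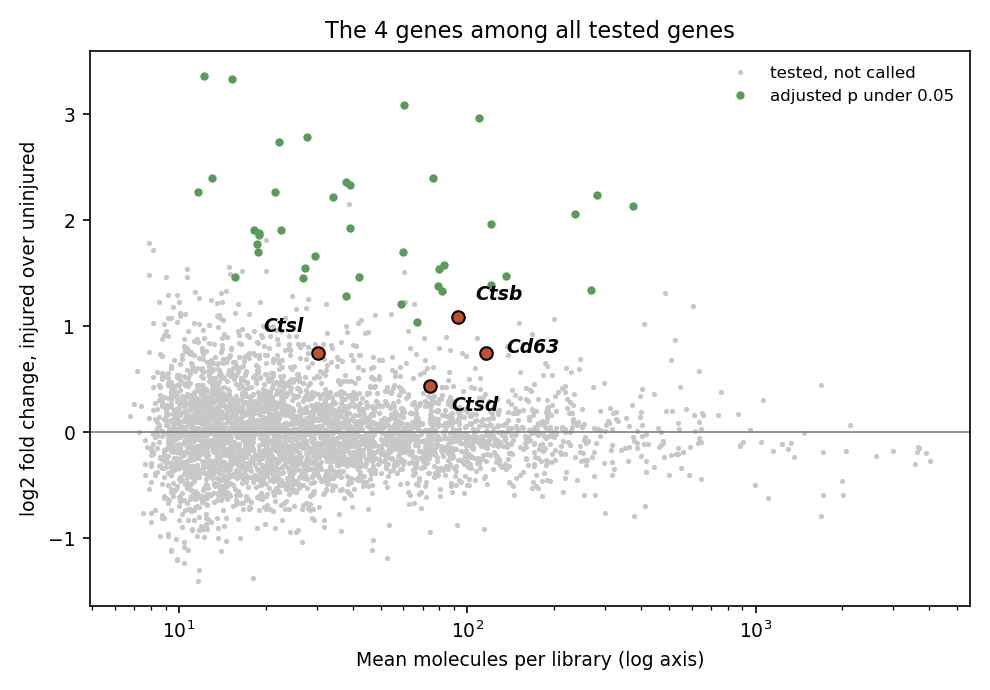
Each point is 1 of 4159 tested genes, with the mean molecules per library on a log axis and the edgeR log2 fold change, injured over uninjured, on the vertical axis. Green points are the 41 genes with an adjusted p under 0.05, and the 4 named genes are outlined: Ctsb at 1.09, Ctsl at 0.75, Cd63 at 0.74 and Ctsd at 0.44 all lie above 0, and Ctsb lies near the lower edge of the called genes.

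Ctsl, the second cysteine cathepsin, was the least abundant of the 4 in molecules and the least precisely measured. It was counted at 38, 19, 7 and 24 molecules in uninjured replicates 1 to 4 and at 49, 67, 13 and 25 molecules in the injured ones. Its level was 97.7, 83.7, 81.1 and 57.6 CPM without injury and 135, 179, 101 and 105 CPM with it. Injured replicates 3 and 4 lay only a little above uninjured replicate 1, and injured replicate 2 was again the highest. The means were 80.0 ± 16.6 CPM and 130 ± 35.9 CPM (SD, n = 4 each).

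The fitted Ctsl fold was 1.68 with a 95% interval from 1.11 to 2.55, and the log2 fold change of 0.75 (standard error 0.29) did not pass (edgeR adjusted p = 0.431). The separation of the groups in CPM depended on the scaling. As a share of all molecules, Ctsl took 0.0101% in uninjured replicate 1 but 0.00849% and 0.00971% in injured replicates 3 and 4, so the groups overlapped. The other 3 genes remained separated on that scale. How many of all tested genes were separated on it was not counted, so this has no background to be read against. With the replicate number as a block, the Ctsl log2 fold change was 0.73 and did not pass (edgeR adjusted p = 0.109). Ctsl passed in 1 of 21 alternative fits, the one with this block and both libraries numbered 3 left out. There it was 0.78 (edgeR adjusted p = 0.0241), and 272 of 4660 genes (5.84%) were called higher.

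Ctsd, the aspartic protease, had the smallest change. It was counted at 85, 61, 18 and 96 molecules in uninjured replicates 1 to 4 and at 98, 104, 48 and 84 molecules in the injured ones. Its level was 218, 269, 209 and 230 CPM without injury and 271, 278, 374 and 354 CPM with it. Injured replicates 1 and 2 were almost level with uninjured replicate 2, and injured replicates 3 and 4 stood above them. The group means were 232 ± 26.4 CPM and 319 ± 52.6 CPM (SD, n = 4 each).

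The fitted Ctsd fold was 1.36 with a 95% interval from 0.982 to 1.88, which includes no change and overlaps the Ctsb interval. On the log2 scale it was 0.44 (standard error 0.22, edgeR adjusted p = 0.713), and blocking by replicate number gave 0.41 (edgeR adjusted p = 0.294). It was called in none of 21 alternative fits. Within numbers 1 to 4 injured levels were 1.24, 1.03, 1.79 and 1.54 times the uninjured ones. Ctsd thus had its larger ratios in numbers 3 and 4, where Ctsb had its smallest one in number 3. Fitted on numbers 1 and 2 only, the log2 fold change of Ctsd was 0.19, and on numbers 3 and 4 only it was 0.70. The difference between these sets of numbers was not tested.

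**Figure D3:**
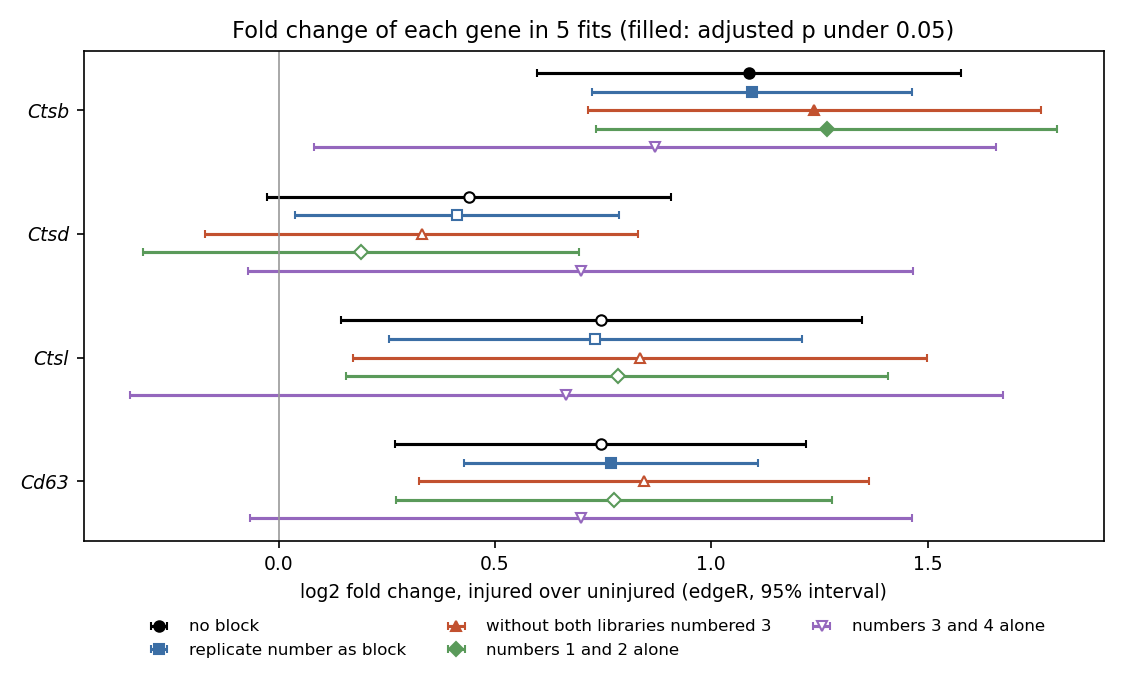
The log2 fold change of each gene, injured over uninjured, with its 95% interval in 5 edgeR fits: all libraries without a block, with the replicate number as a block, without both libraries numbered 3, and the pairs 1 to 2 and 3 to 4 each on their own. Filled symbols have an adjusted p under 0.05. Every estimate is above 0, and filled symbols appear for Ctsb in 4 fits and for Cd63 with the block.

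**Figure D4:**
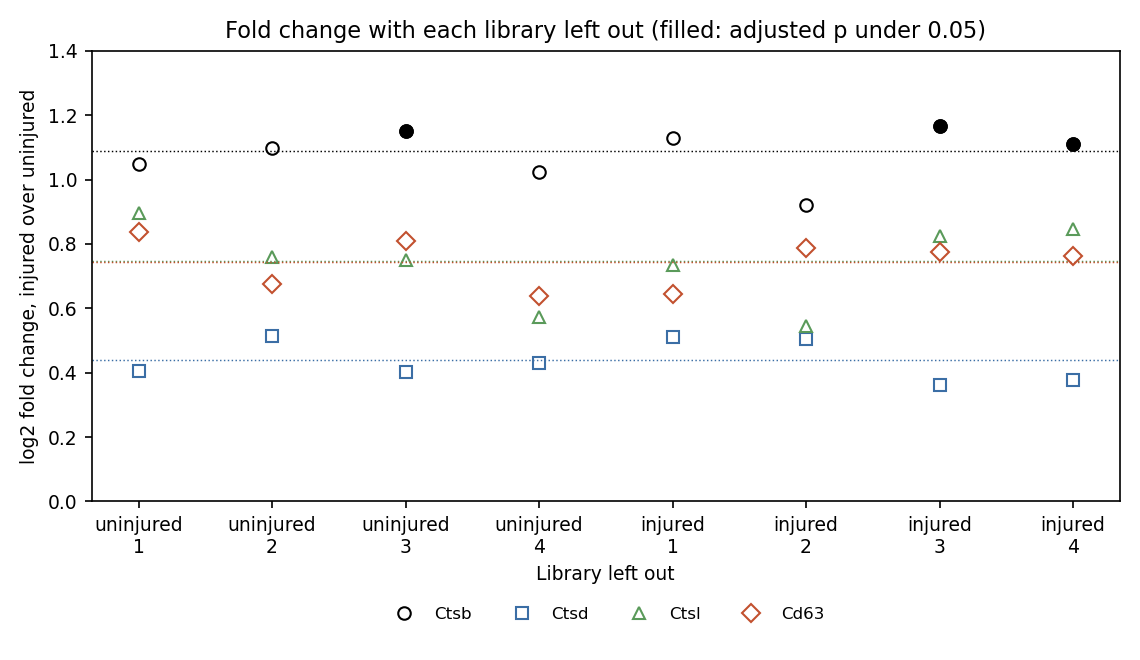
The log2 fold change of each gene, injured over uninjured, when the library named on the horizontal axis is left out. Dotted lines give the value with all 8 libraries (those of Ctsl and Cd63 coincide at 0.75 and 0.74), and filled symbols have an edgeR adjusted p under 0.05, which Ctsb reached in 3 of 8 fits and the other genes in 0.

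Ratios between the genes within a library do not depend on how libraries are scaled, and they were used to ask whether the genes changed by unequal amounts. Ctsb stood at 0.906, 0.820, 1.22 and 0.823 molecules per Ctsd molecule in uninjured replicates 1 to 4, and at 1.51, 2.11, 0.958 and 1.21 in injured replicates 1 to 4. The injured libraries were higher in numbers 1, 2 and 4 and lower in number 3, and the groups overlapped. The mean log2 ratio was -0.11 ± 0.27 in uninjured and 0.47 ± 0.48 in injured libraries (SD, n = 4 each), a difference of 0.58 with a standard error of 0.28. By an exact two-sided permutation test over libraries this gave p = 0.0857, and p = 0.257 after Benjamini-Hochberg adjustment over the 6 pairs of genes. The smallest p that 4 against 4 libraries can give is 0.0286. For 1 pair of genes alone at that value the adjusted p would be 0.171, and 4 of the 6 pairs would have to reach it to pass, so the adjusted values cannot single out 1 pair.

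The other 5 pairs also overlapped between the groups. Ctsb relative to Ctsl differed by 0.35 on the log2 scale, with a standard error of 0.18 (exact permutation p = 0.0857, adjusted p = 0.257). Ctsb relative to Cd63 differed by 0.29 (standard error 0.23), Ctsd relative to Ctsl by -0.22 (0.35), Ctsd relative to Cd63 by -0.28 (0.27) and Ctsl relative to Cd63 by -0.06 (0.22). Their adjusted exact permutation p-values were 0.514, 0.651, 0.514 and 0.743.

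Taken within replicate numbers, the Ctsb to Ctsl ratio was higher in the injured library of all 4 numbers, by 0.58, 0.34, 0.20 and 0.31 on the log2 scale for numbers 1 to 4. The mean of 0.35 then had a standard error of 0.08. Ctsb relative to Cd63 was also higher in all 4 numbers, by 0.28, 0.60, 0.10 and 0.19, with a mean of 0.29 and a standard error of 0.11. Ctsb relative to Ctsd was higher in 3 of 4 numbers and differed by -0.34 in number 3 (standard error of the mean 0.35). The exact two-sided sign-flip permutation test over 4 numbers cannot go below p = 0.125, which the first 2 of these ratios reached, and it cannot pass the threshold. These values were added after the data were seen. Whether Ctsb changed by more than the other genes could not be decided by either test at this number of libraries.

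**Figure D5:**
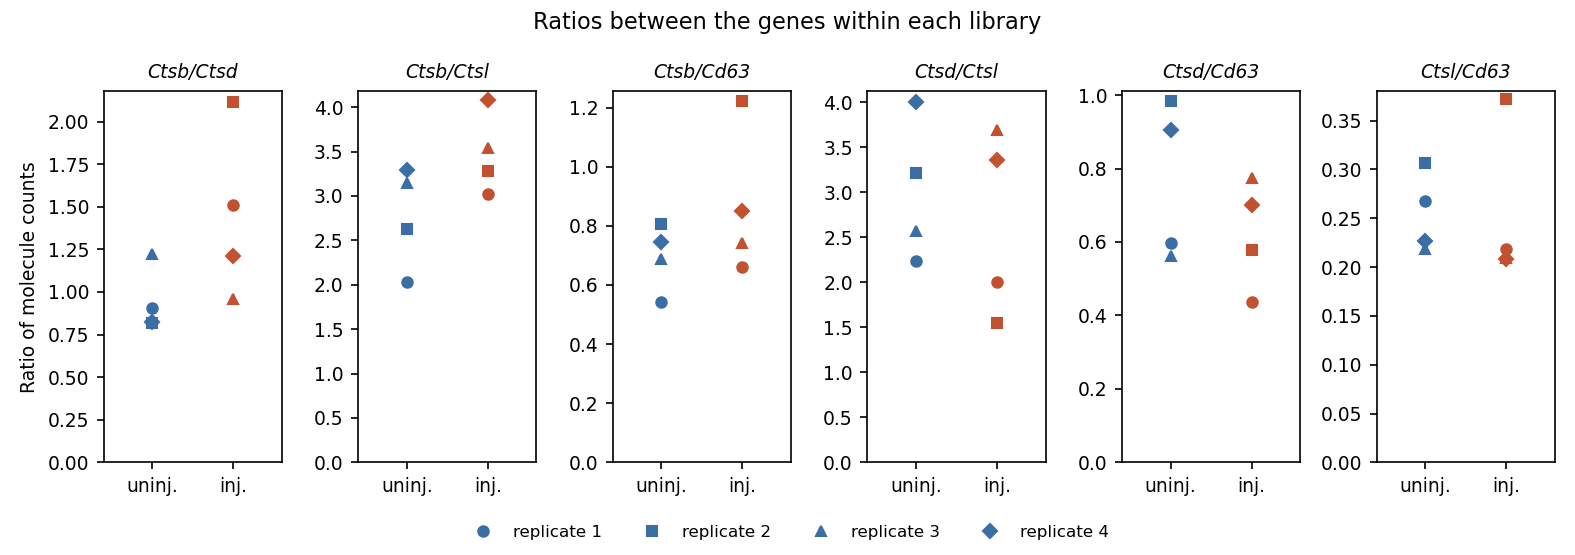
Ratio of molecule counts for each of the 6 pairs of genes in every library, on linear axes that start at 0, with uninjured libraries in blue, injured libraries in orange and symbols for the replicate number. The groups overlap in every panel. The Ctsb to Ctsd ratio reached 2.11 in injured replicate 2 and was 0.958 in injured replicate 3.

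Among the molecules of the 3 cathepsins, Ctsb made up 40.9% ± 4.00 in uninjured and 49.4% ± 5.48 in injured libraries, and Ctsd 44.0% ± 4.52 and 36.1% ± 7.94 (SD, n = 4 each). The share of Ctsl was 15.1% ± 2.87 and 14.4% ± 2.83. Injured replicates 1 to 4 had Ctsb shares of 50.2%, 56.3%, 43.0% and 48.3%, and uninjured replicates 1 to 4 had 38.5%, 38.5%, 46.8% and 39.7%. Number 3 was the one in which the injured library had the lower share. It rested on 47 cathepsin molecules in the uninjured library, with an exact 95% binomial interval from 32.1% to 61.9%. Together the 4 genes held 0.0783% ± 0.0106 of all molecules in uninjured and 0.134% ± 0.0181 in injured libraries (SD, n = 4 each), a ratio of 1.71. This share was 0.0913%, 0.0806%, 0.0659% and 0.0752% in uninjured replicates 1 to 4 and 0.145%, 0.151%, 0.110% and 0.129% in the injured ones. Libraries numbered 3 were the lowest of each group on this share, which is not scaled with TMM factors. The order depended on the scaling. In CPM, uninjured replicate 3 was the highest of its group for Ctsb (255) and Cd63 (371) and the lowest for Ctsd (209), with Ctsl (81.1) in between.

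The 5 tested genes whose profile over the 8 libraries was most like the mean standardized profile of the 4 genes had Pearson correlations with it between 0.956 and 0.991. ENSRNOG00000013057 came first, at 23.1, 30.8, 23.2 and 9.60 CPM in uninjured replicates 1 to 4 and 122, 174, 93.5 and 148 CPM in the injured ones. The uninjured levels of ENSRNOG00000013057 rested on only 9, 7, 2 and 4 molecules, and the injured ones on 44, 65, 12 and 35. Its order of injured libraries, with replicate 2 highest and replicate 3 lowest, was that of Ctsb. The second was ENSRNOG00000033134 (correlation 0.972), at 64.2, 52.9, 57.9 and 48.0 CPM without injury and 105, 101, 109 and 97.0 CPM with it. It was counted at 25, 12, 5 and 20 molecules in uninjured replicates 1 to 4 and at 38, 38, 14 and 23 in the injured ones. These genes were chosen for their likeness out of 4159, and the 8 libraries fall into 2 groups, so that high values describe the choice.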

How the data were processed

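The labels' protocols name CEL-Seq2, which counts the 3′ ends of polyadenylated transcripts with molecular identifiers, so that a count does not grow with transcript length. The deposited values are counts of molecules per Ensembl gene without normalization, 1 column per library. HISAT2 2.0.4, HTSeq 0.6.0 and Rnor_6.0 are named in the submitters' processing notes. The sources used here do not give how identifiers were collapsed. Symbols of the 4 genes came with their selection. None of the 123 listed symbols of other lysosomal genes and cell type markers could be paired with an identifier, so these lists were not tested. Genes and lists were chosen with earlier results of these data known. The named genes were the 4 members and the genes most like them by correlation of log2 CPM (prior count 3). With no symbols, 2 identifiers were printed.

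Genes were filtered with filterByExpr (minimum count 10, total 15). The test was edgeR 4.0.16's quasi-likelihood F test in R 4.3.3 (TMM, robust, two-sided, Benjamini-Hochberg over 4159 genes, threshold 0.05). It was run on simulated counts drawn independently for each library, without the shared deviation of same-numbered libraries. The pass rule for recovery there used larger changes than those of the genes reported here. CPM use molecules in tested genes times the TMM factor as library size. Standard errors come from the fold and F statistic. Ratios between genes used 0.5 added molecules. Intervals for shares and single libraries are exact binomial (95%) and cover counting error only. Alternatives were DESeq2 1.42.0, limma-voom (limma 3.58.1), other scalings, filters and subsets of libraries, a correction for repeated identifiers (4096 possible) and each library left out. Plots used matplotlib 3.10.9.

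Replicate numbers come from the titles, which do not say what they mean. Deviations from group means correlated between same-numbered libraries (0.17 to 0.45 across genes, against -0.39 to 0.24 for different numbers). These ranges overlap, and the pairing was read from the same counts. The numbers were treated as pairs only in the fits with a block and the comparisons within numbers, not in the main fit. No 2 libraries of a group agreed within sampling noise (chi-square per degree of freedom at least 3.23).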

Additional observations from a re-analysis of the deposited data

Results flagged for a closer look

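One value stood far from the others of its group. The log2 ratio of Ctsl to Cd63 was -1.42 in injured replicate 2, from 67 and 180 molecules, while the other 3 injured libraries lay between -2.24 and -2.18. The gap took 0.928 of the group's range. It was the only such value in 20 groups of 4 libraries that were checked (levels of the 4 genes and their 6 ratios), and chance flags about 1 in 20.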

How the results depend on the processing

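No log2 fold change of the 4 genes turned negative in 84 fits (21 alternatives for each gene), and 75 kept their side of the threshold. The Ctsb call held in 12 of 13 alternatives that did not leave out a single library, and was lost in numbers 3 and 4 alone (0.87). Leaving out 1 library moved it from 0.92 to 1.17. Cd63 passed with the replicate block (0.77), and with that block without both libraries numbered 3 (0.85), where Ctsl passed too (0.78). The replicate block changed no other call among the 4 genes. Ctsd moved between 0.19 and 0.70. The count of genes called over the whole table, 41 in either direction, was 98 with no filter on low counts, 110 with the replicate block, 62 without both libraries numbered 3, 383 with these left out and the block, 86 in numbers 1 and 2 alone, 3 in numbers 3 and 4 alone and 23 to 77 with 1 library left out (23 without uninjured replicate 1 and without uninjured replicate 4, 77 without uninjured replicate 3). Fits on subsets hold fewer libraries. Beyond that, the cause was not tested. Of 66 values of the ratios between genes, 63 kept their sign. Those with the replicate block equal the main differences by construction, so their sign could not change. None of the 66 passed, but these tests had little room to pass. The replicate block cannot reach the threshold there, and with all 8 libraries and no block 4 of the 6 pairs would need the smallest p. The Ctsl to Cd63 difference turned positive without uninjured replicate 2, injured replicate 3 or injured replicate 4, within a range from -0.26 to 0.028. The correction for repeated identifiers raised no count of the 4 genes by more than 2.84%. Depth limits Ctsl most, with 7 molecules in uninjured replicate 3.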
